A study of Mus musculus with 6 samples.

Results

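Polycomb repressive complexes and the Asxl genes were examined through 10 genes picked by symbol: Ezh1, Ezh2, Eed, Suz12 and Jarid2 of Polycomb repressive complex 2 (PRC2), Bmi1, Ring1 and Cbx7 of Polycomb repressive complex 1 (PRC1), and Asxl1 and Asxl2. All 10 were found among the 24054 gene symbols of the deposited table of TPM, transcript levels scaled to transcript length and to the same library total. Levels came from RNA-seq of c-Kit+ splenocytes, cells bound by magnetic beads against the progenitor receptor CD117, with 1 library per mouse. The 3 AML mice (acute myeloid leukaemia) had the genotype Flt3ITD/ITD;Dnmt3afl/- with MxCre, a recombinase driven by an interferon-inducible promoter. The 3 MPN mice (myeloproliferative neoplasm), the controls, were Flt3ITD/ITD;Dnmt3afl/fl, and their titles name no Cre. Both groups therefore carried the internal tandem duplication of the receptor gene Flt3 on both alleles and a floxed Dnmt3a, so no group with unaltered Flt3 was set beside them. The study set these Dnmt3a genotypes against each other on a shared Flt3-ITD background, and no label states that recombination of the floxed allele took place. Spleens were taken from moribund animals in the AML group, ages are not given, and genotype, Cre and disease cannot be told apart.

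Polycomb proteins keep genes silent through 2 kinds of complex. PRC2 methylates histone H3 on lysine 27 through the enzymes EZH1 or EZH2, which work only in a complex with EED, a reader of the methylated histone, and SUZ12, a scaffold; JARID2 and other accessory subunits steer this core to chromatin. PRC1 attaches ubiquitin to histone H2A through RING1 or RNF2 paired with a PCGF protein such as BMI1, and CBX proteins such as CBX7 bind the mark left by PRC2. ASXL1 and ASXL2 are partners of BAP1, the enzyme that removes this ubiquitin. In blood, BMI1 is known for the self-renewal of stem cells, and loss-of-function mutations of EZH2 and ASXL1 recur in human myeloid disease.

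Of the 10 genes, Jarid2 alone passed the test and fell in AML, to 69.9% of its MPN level. The core of PRC2, the PRC1 genes Bmi1, Ring1 and Cbx7, and both Asxl genes did not pass. Of 41 tested genes for other Polycomb subunits, partners and opposing demethylases, 10 rose (Epop, Mtf2, Phf19, Rbbp4, Rbbp7, Pcgf2, Pcgf5, Pcgf6, Cbx2 and Cbx6) and 1 fell (Phf1). That is 26.8% called, 24.4% upward, near the 30.1% called and 20.1% called upward over all 12223 tested genes.

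The labels were checked on Dnmt3a, the DNA methyltransferase whose alleles differ between the groups. Its level was 11.5, 13.5 and 12.9 TPM in AML mice, against 33.9, 29.3 and 33.4 TPM in MPN mice (limma adjusted p = 0.000879; exact permutation p = 0.1, two-sided, the smallest that 3 mice against 3 allow). A value per gene does not show which exons were read. TPM keeps no depth; steps in a second deposited table gave relative depths of 0.749 to 1.31 in AML and 0.949 to 1.06 in MPN, and 11780 to 12034 genes reached 1 TPM in each library. Per the file headers, MPN replicate 1 came from another sequencing run than the other libraries. The female transcript Xist reached 186 and 194 TPM in AML replicates 1 and 2 but no more than 0.06 TPM in any other mouse, so females occurred in AML only. Kit, Cd34, Flt3, Ptprc, Spi1, Myb, Gata2 and Runx1 were listed for blood progenitor identity, though not all of them are confined to progenitors. They were present in all mice, but not in like proportions. Their sum was 1406 to 1550 TPM in AML mice and 1198 to 1212 TPM in MPN mice. Of the 8, 5 rose, 1 fell and 2 did not pass, so 75% were called beside 30.1% of all tested genes. Cd34 was at 338 ± 70.6 TPM in AML mice and 49.6 ± 8.54 TPM in MPN mice (SD, n = 3 each, limma adjusted p = 0.000231). Ptprc was at 181 ± 41.5 TPM in AML mice and 380.1 ± 17.9 TPM in MPN mice (SD, n = 3 each, limma adjusted p = 0.00384). The groups lay apart for all 8, 5 higher and 3 lower in AML. The lower ones included Kit, which encodes CD117, and Spi1, which did not pass (limma adjusted p = 0.1035 and 0.09626). Kit was at 99.2 to 129.7 TPM in AML mice and 144.7 to 152 TPM in MPN mice. Spi1 was at 199.6 to 327.2 TPM in AML mice and 338.6 to 433.8 TPM in MPN mice. Summed markers of mature cells lay lower in AML without overlap, apart from erythroid markers, whose ranges overlapped. The summed level of 9 T and NK cell markers was 5.54 to 8.22 TPM in AML mice and 181 to 296 TPM in MPN mice, with 6 of the 9 under 1 TPM in all AML mice. Most of the MPN sum was Klrd1 (107 to 198 TPM), Cd8a (40.8 to 58.25 TPM) and Cd4 (15.6 to 42.3 TPM). Cd3d, Cd3e and Cd3g were at 1.27 to 5.23 TPM in MPN mice. For 9 macrophage markers the sum was 78.5 to 189 TPM in AML mice and 396 to 525 TPM in MPN mice, 7 B cell markers summed to 27.7 to 36.9 TPM in AML mice and 79.0 to 104.6 TPM in MPN mice, and 5 of these 7 were under 1 TPM in all AML mice, most of whose sum was Cd79b (26.1 to 33.9 TPM). The macrophage marker C1qa was listed at 0 in AML replicates 2 and 3, while no marker was at 0 in all AML mice. The sums in AML and MPN were 270 to 1490 and 1657 to 2005 TPM for 8 dendritic cell markers, 667 to 1660 and 1774 to 1964 TPM for 6 monocyte markers, 6782 to 20530 and 30320 to 48100 TPM for 8 mature neutrophil markers, and 71.6 to 1219 and 442 to 2909 TPM for 8 erythroid markers. Single markers did not all follow their sum. Of the monocyte markers 4 fell, Cd14 rose (limma adjusted p = 0.0456) and Ly6c2 did not pass. Ly6c2 was at 461 to 1366 TPM in AML mice and 623 to 751 TPM in MPN mice. Of the dendritic cell markers 4 fell and 4 did not pass. Irf8, which did not pass, was at 202 to 1101 TPM in AML mice and 700 to 975 TPM in MPN mice. Of the neutrophil markers 7 fell and Cxcr2 did not pass. The part of these cells in the results given here was not tested, and in bulk RNA fewer cells of a type and less RNA per cell cannot be told apart.

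The start regions of the genes are shown because Dnmt3a acts on CpG, the dinucleotide that mammalian DNA methylation uses, and because Ezh2 is a known target of the E2F cell cycle factors. RefSeq gave 11 start regions for the 10 genes, on GRCm38.p6, each from 250 bases before to 50 after a transcription start. They held 13 to 41 CpG, and all 11 held more than the median of 7 CpG over 32851 such regions. The E2F letters TTTCCCGC, TTTGGCGC, TTTCGCGC and TTTGCCGC, searched on both strands with overlaps counted, occurred in 2.26% of all regions of this length and in those of Ezh2 and Suz12 among the 10 genes. Each of these runs of letters holds a CpG, so regions with many CpG, like those of the 10 genes, are likelier to match. The share among regions of like CpG content was not computed. Among the other PRC2 subunits looked up, Phf19 also held a match, read as the reverse complement. The sequences below give Jarid2, the gene of the 10 that fell, at the first of its 2 listed starts, followed by the 3 with a match; capitals mark the match, and strands run 5′ to 3′ with the gene. A match is a run of letters and shows no binding, and neither methylation nor binding was measured here.
Jarid2, chr13:44730524-44730823, plus strand: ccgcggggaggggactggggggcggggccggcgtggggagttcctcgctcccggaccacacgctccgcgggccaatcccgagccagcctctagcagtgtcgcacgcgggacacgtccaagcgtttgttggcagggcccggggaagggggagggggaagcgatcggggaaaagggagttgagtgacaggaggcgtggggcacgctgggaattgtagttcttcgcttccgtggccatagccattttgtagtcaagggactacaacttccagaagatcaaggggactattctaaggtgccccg
Ezh2, chr6:47594981-47595280, minus strand: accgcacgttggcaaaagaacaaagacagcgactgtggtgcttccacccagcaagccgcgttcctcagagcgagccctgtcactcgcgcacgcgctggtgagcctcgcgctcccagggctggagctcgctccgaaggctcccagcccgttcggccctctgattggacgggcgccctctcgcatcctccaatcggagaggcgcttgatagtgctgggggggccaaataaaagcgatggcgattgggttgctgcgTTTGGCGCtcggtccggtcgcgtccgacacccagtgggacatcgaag
Suz12, chr11:79992856-79993155, plus strand: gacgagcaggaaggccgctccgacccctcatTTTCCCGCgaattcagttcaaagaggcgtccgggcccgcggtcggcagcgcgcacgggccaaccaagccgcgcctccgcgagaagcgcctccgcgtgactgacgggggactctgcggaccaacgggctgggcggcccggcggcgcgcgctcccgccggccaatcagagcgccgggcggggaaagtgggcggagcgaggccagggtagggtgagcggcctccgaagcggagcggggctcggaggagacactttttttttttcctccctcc
Phf19, chr2:34913927-34914226, minus strand: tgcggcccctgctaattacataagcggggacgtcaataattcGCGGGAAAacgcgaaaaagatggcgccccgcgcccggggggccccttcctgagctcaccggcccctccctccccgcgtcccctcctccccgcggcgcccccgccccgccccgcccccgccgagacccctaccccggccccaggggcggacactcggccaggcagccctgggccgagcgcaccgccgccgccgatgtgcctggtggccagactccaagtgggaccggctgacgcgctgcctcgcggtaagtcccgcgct
The 4 regions held 24, 31, 41 and 38 CpG in this order, and G and C made up 64.3%, 64.3%, 71.0% and 74.3% of their bases.

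All 10 genes were expressed in every mouse, from 9.31 TPM for Cbx7 to 99.9 TPM for Suz12, so none depended on the filter of at least 1 TPM in 3 libraries. In AML, mean levels ran from Ezh2 (89.7 TPM) through Suz12, Eed, Asxl1, Jarid2, Bmi1, Asxl2, Ezh1 and Ring1 to Cbx7 (11.5 TPM). In that order Ezh2 and Suz12 overlapped in their ranges over 3 mice, as did Jarid2 with Bmi1, Bmi1 with Asxl2, and Asxl2 with Ezh1; the other neighbours were apart. In MPN, the order ran from Ezh2 (77.7 TPM) through Suz12, Eed, Jarid2, Asxl1, Asxl2, Ezh1, Ring1 and Bmi1 to Cbx7 (11.9 TPM). There the overlapping neighbours were Suz12 with Eed, Jarid2 with Asxl1, Asxl2 with Ezh1, and Ring1 with Bmi1. Jarid2 thus stood below Asxl1 in AML by 32.1 ± 2.30 against 49.4 ± 4.21 TPM, while in MPN it stood at 45.9 ± 1.55 against 41.4 ± 4.15 TPM for Asxl1 (SD, n = 3 each).

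**Figure D1:**
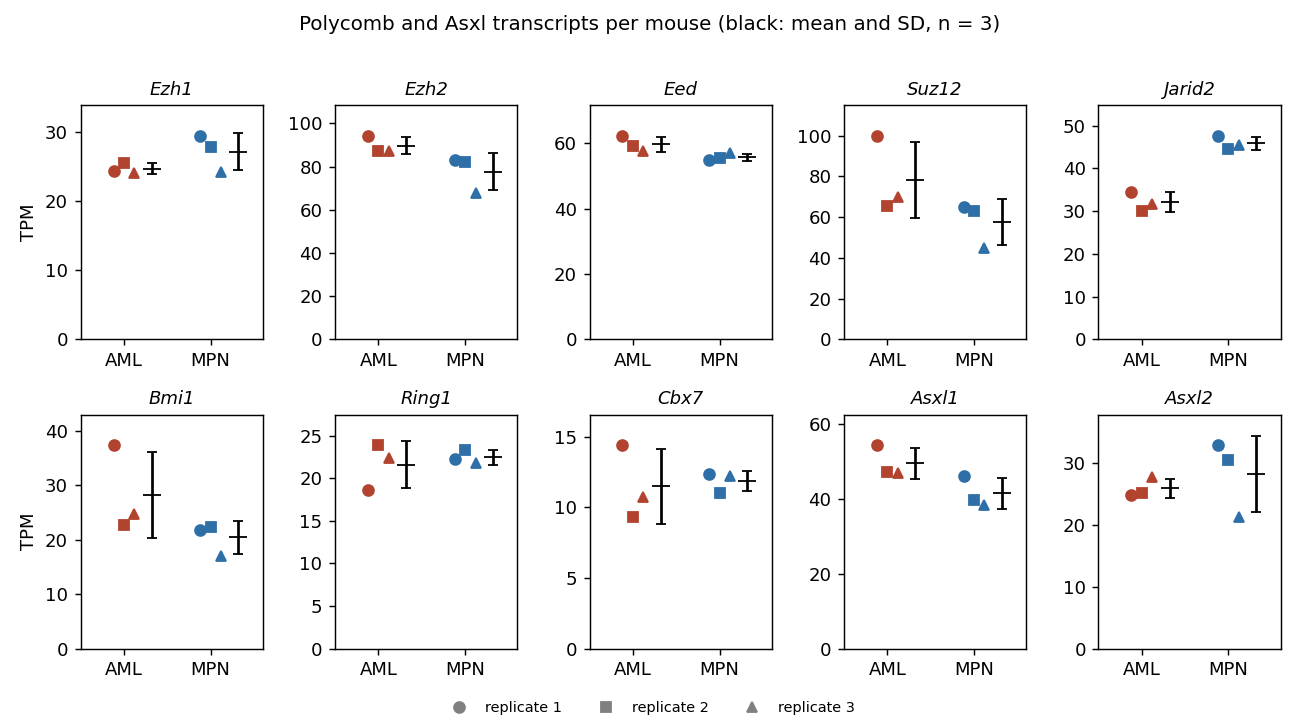
Level in TPM of each of the 10 genes in each mouse, AML in red and MPN in blue, with marker shapes for replicates and the mean and SD (n = 3) in black; each vertical axis starts at 0. Jarid2 lies at 30.0 to 34.6 TPM in AML and at 44.6 to 47.6 TPM in MPN, and AML replicate 1 stands highest for Suz12 and Bmi1.

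The catalytic subunits of PRC2 did not pass. Ezh2 (chr6:47530139-47595341, minus strand, on GRCm38), the enzyme typical of dividing cells, had 94.2, 87.5 and 87.4 TPM in AML mice, against 83.0, 82.3 and 67.9 TPM in MPN mice. The groups did not overlap, with the lowest AML mouse 4.36 TPM above the highest MPN mouse. The log2 fold change of TPM + 1, AML minus MPN, was 0.21 ± 0.12 (SE), with a 95% interval of -0.06 to 0.48 and a limma adjusted p of 0.210. It was 0.12 without MPN replicate 3, 0.13 in RPKM and 0.07 after centring on the median gene. Ezh1 (chr11:101191115-101226463, minus strand), the paralogue known from resting cells, had 24.3, 25.5 and 24.1 TPM in AML mice and 29.4, 27.8 and 24.1 TPM in MPN mice. Here the groups overlapped through MPN replicate 3, and the log2 fold change was -0.13 (95% interval -0.43 to 0.17, limma adjusted p = 0.468). The ratio of Ezh1 to Ezh2, given as a description with no test, was 0.258, 0.292 and 0.276 in AML and 0.354, 0.338 and 0.355 in MPN. Ezh1 thus made up 20.5% to 22.6% of the summed EZH level in AML and 25.3% to 26.2% in MPN, with no overlap.

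The 2 partners that the enzymes need did not pass either. Eed (chr7:89954654-89980983, minus strand) had 62.2, 59.1 and 57.8 TPM in AML mice and 54.8, 55.5 and 57.0 TPM in MPN mice. These levels varied little, with a coefficient of variation of 3.84% in AML and 2.0% in MPN, and the log2 fold change of 0.10 had a 95% interval of -0.13 to 0.33 (limma adjusted p = 0.479); its direction turned, to -0.05, when libraries were centred on the median gene. Suz12 (chr11:79993106-80034123, plus strand) had 99.9, 65.4 and 69.8 TPM in AML mice and 64.9, 63.2 and 44.7 TPM in MPN mice. The groups lay apart by 0.52 TPM only, AML replicate 1 standing far above the other AML mice and MPN replicate 3 far below the other MPN mice. Its log2 fold change was 0.43 ± 0.21 (SE), with a 95% interval of -0.05 to 0.92 and a limma adjusted p of 0.152. It was 0.25 without AML replicate 1, 0.26 without MPN replicate 3 and 0.15 with array weights. The annotation places long non-coding RNAs on the opposite strand over 12515 bases of Suz12 and 5039 bases of Ezh2, and no source used here says whether counting took account of strand.

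Jarid2 (chr13:44729474-44921643, plus strand) fell. JARID2 binds the PRC2 core, helps bring it to its targets and has a JmjC domain without demethylase activity. The gene had 34.6, 30.0 and 31.7 TPM in AML, against 47.6, 44.6 and 45.5 TPM in MPN. Each AML mouse lay at least 10.01 TPM below each MPN mouse, a gap several times the SD within either group. The log2 fold change was -0.51 ± 0.11 (SE), with a 95% interval of -0.77 to -0.24 and a limma adjusted p of 0.0150. In a second deposited table of reads per kilobase, scaled to library size (RPKM), Jarid2 lay at 11.6, 10.02 and 10.2 RPKM in AML and 15.2, 14.5 and 15.5 RPKM in MPN (log2 fold change -0.51, limma adjusted p = 0.0138). The TPM call ended without MPN replicate 1, which leaves libraries of 1 sequencing run (log2 fold change -0.48, adjusted p = 0.0649), and without MPN replicate 2 (-0.53, adjusted p = 0.0604). It also ended with a term for sex, a fit whose fold change rests on AML replicate 3, the male of its group (-0.52, adjusted p = 0.125). The number of Jarid2 transcripts per Suz12 transcript was 0.346, 0.459 and 0.454 in AML and 0.734, 0.705 and 1.02 in MPN, a ratio chosen after its values were seen.

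None of the 3 PRC1 genes passed. Bmi1 (chr2:18677018-18686629, plus strand), the PCGF protein of canonical PRC1, had 37.3, 22.7 and 24.7 TPM in AML mice and 21.8, 22.3 and 16.98 TPM in MPN mice. The groups lay apart by 0.33 TPM, with AML replicate 1 well above all others, and the log2 fold change was 0.43 ± 0.21 (SE; 95% interval -0.07 to 0.93, limma adjusted p = 0.164). It was 0.22 without AML replicate 1, 0.15 with array weights, and 0.28 after centring on the median gene. Ring1 (chr17:34020792-34024680, minus strand), a ubiquitin ligase, had 18.6, 23.9 and 22.4 TPM in AML mice and 22.2, 23.4 and 21.7 TPM in MPN mice. Its groups overlapped, and its log2 fold change of -0.06 (95% interval -0.39 to 0.27, limma adjusted p = 0.770) turned to 0.04 without AML replicate 1. Cbx7 (chr15:79915807-79971119, minus strand), a reader of methylated lysine 27, had 14.4, 9.31 and 10.7 TPM in AML mice and 12.4, 11.1 and 12.2 TPM in MPN mice. The MPN values lay inside the AML range, and the log2 fold change was -0.06 (95% interval -0.50 to 0.37, limma adjusted p = 0.812), or 0.06 without AML replicate 2.

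The Asxl genes did not pass. Asxl1 (chr2:153345829-153404007, plus strand) had 54.2, 47.0 and 46.9 TPM in AML mice and 46.1, 39.7 and 38.4 TPM in MPN mice. The lowest AML mouse lay 0.75 TPM above the highest MPN mouse, and the log2 fold change was 0.25 ± 0.13 (SE; 95% interval -0.04 to 0.54, limma adjusted p = 0.167), or 0.11 after centring on the median gene. Asxl2 (chr12:3426857-3506852, plus strand) had 24.9, 25.2 and 27.7 TPM in AML mice and 32.9, 30.4 and 21.3 TPM in MPN mice. Its MPN mice spanned the AML range, and the log2 fold change of -0.10 (95% interval -0.51 to 0.32, limma adjusted p = 0.705) turned to 0.02 without MPN replicate 1. The ratio of Asxl2 to Asxl1 was 0.459, 0.535 and 0.591 in AML and 0.713, 0.767 and 0.555 in MPN, so that MPN replicate 3 lay within the AML range. Asxl3, the third gene of the family, was listed at 0 in all 6 mice.

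Counted together, 0 of the 10 genes rose, 1 fell and 9 did not pass, so 10% were called, against 30.1% of all 12223 tested genes (20.1% higher and 10% lower in AML). At an unadjusted p under 0.05 the count was also 1. By RPKM, 1 of the 10 passed, again Jarid2, against 30.6% of all genes tested there, and the direction was the same for 10 of 10. The groups did not overlap for 6 of the 10, 5 higher in AML (Ezh2, Eed, Suz12, Asxl1 and Bmi1) and 1 lower, while over all tested genes 34.8% were apart and higher in AML, 16.1% apart and lower, and 50.9% apart in either direction. The median log2 fold change of the 10 genes was 0.02, and that of all tested genes was 0.13; centring libraries on the median gene removes that shift and brings the share of higher calls over all genes to 52.3%, in place of 66.7%. Relative to the median of all genes, 4 of the 10 lay higher (Suz12, Bmi1, Asxl1 and Ezh2) and 6 lower. AML replicate 1, the deepest library, was the highest of its group for 7 of the 10, as was MPN replicate 1, and MPN replicate 3 was the lowest of its group for 7.

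**Figure D2:**
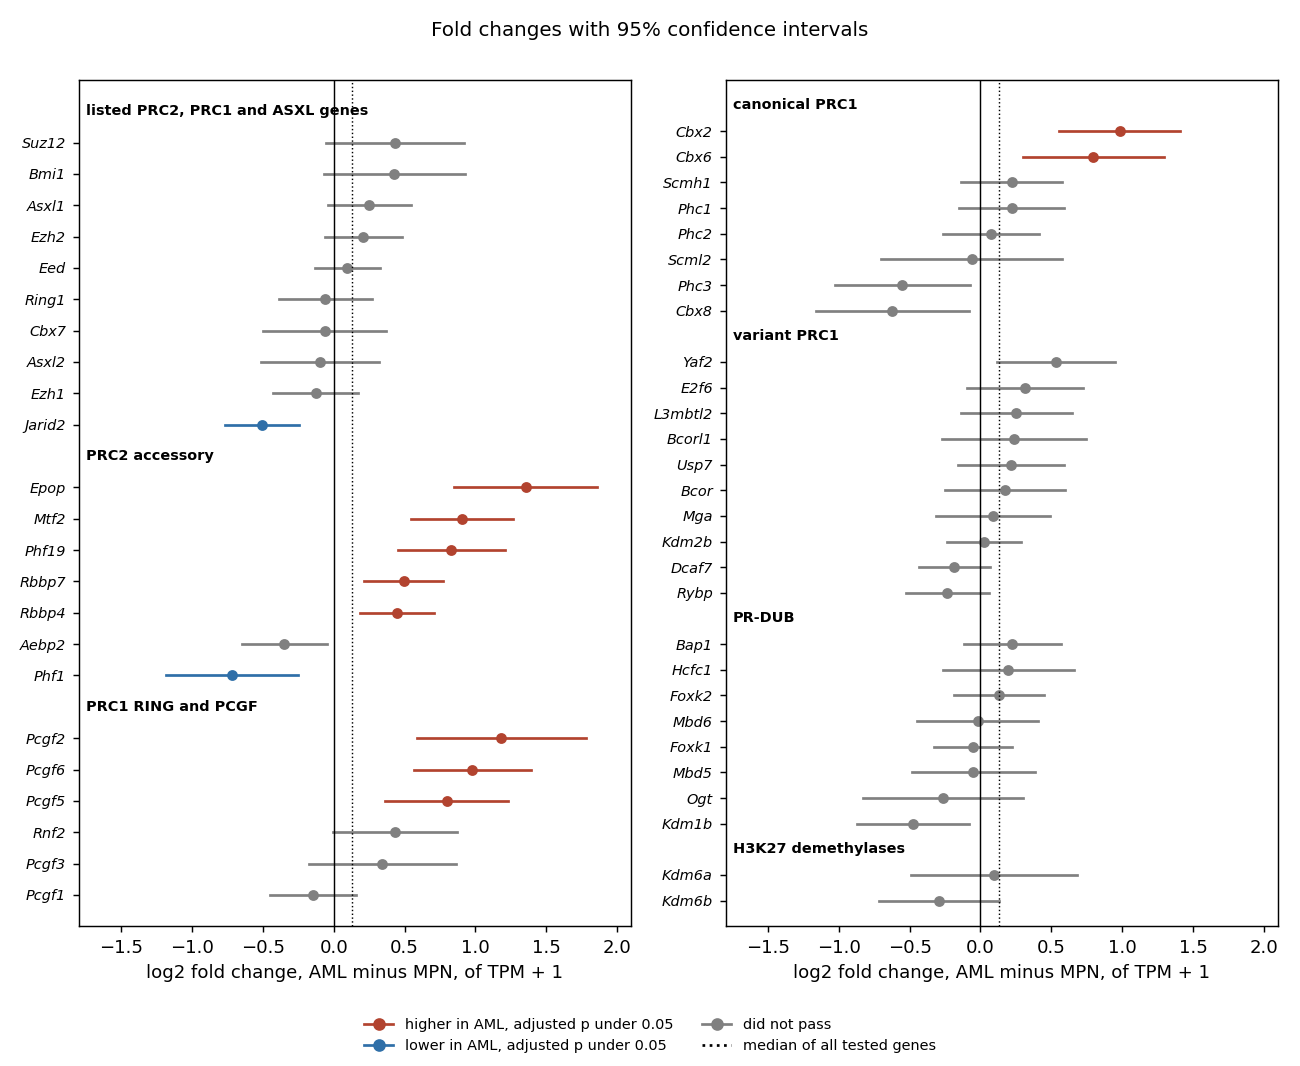
Log2 fold change of TPM + 1, AML minus MPN, with its 95% confidence interval from limma, for the 10 listed genes and the tested genes of 6 lists of Polycomb subunits and partners; red and blue mark genes higher or lower in AML at an adjusted p under 0.05, grey those that did not pass, and the dotted line the median of all tested genes at 0.13. Jarid2 alone is coloured among the 10, at -0.51, while the PRC2 accessory list holds 5 red genes and 1 blue gene.

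Most of the other genes of PRC2 passed. Of 7 histone-binding and accessory subunits, 5 rose, 1 fell and 1 did not pass, so 85.7% were called beside 30.1% of all tested genes, with a median log2 fold change of 0.49. Epop, which links PRC2 to elongin and is listed in the table under its older symbol, had 19.2, 12.3 and 18.8 TPM in AML mice and 5.72, 4.97 and 6.92 TPM in MPN mice (log2 fold change 1.35 ± 0.22 SE, limma adjusted p = 0.00434). Every AML mouse lay above every MPN mouse for it, and it was the only gene of the list that still passed with the term for sex. The Polycomb-like proteins PHF1, MTF2 and PHF19 are alternative subunits that bind DNA rich in CpG and hold PRC2 there, and their genes passed in opposite directions. Mtf2 rose, at 47.5, 45.5 and 43.8 TPM in AML mice and 27.9, 25.2 and 19.3 TPM in MPN mice (0.91 ± 0.16 SE, adjusted p = 0.00567). Phf19 rose, at 18.3, 14.2 and 14.1 TPM in AML mice and 7.87, 8.89 and 7.98 TPM in MPN mice (0.83 ± 0.16 SE, adjusted p = 0.00903). Phf1, named after its values were seen, fell, at 13.6, 15.2 and 22.2 TPM in AML mice and 31.2, 27.6 and 25.4 TPM in MPN mice (-0.72 ± 0.20 SE, adjusted p = 0.0320). AML replicate 3 came closest to MPN for Phf1. The call was lost when AML replicate 1 or 2 or any MPN mouse was left out (limma adjusted p between 0.0646 and 0.104), with no filter (0.0511) and with the term for sex (-0.32, adjusted p = 0.413).

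As shares of the summed level of these 3 genes, Phf1 made up 17.1%, 20.2% and 27.7% in AML and 46.6%, 44.7% and 48.3% in MPN. Mtf2 made up 59.8%, 60.8% and 54.7% in AML and 41.6%, 40.9% and 36.6% in MPN, so Phf1 was the leading one in each MPN mouse and Mtf2 in each AML mouse. These shares were set up after the values were seen and have no test. Rbbp7 and Rbbp4 encode histone-binding proteins that PRC2 shares with other chromatin complexes. Rbbp7, which lies on the X chromosome, had 304, 259 and 271 TPM in AML mice and 200, 216 and 176 TPM in MPN mice (log2 fold change 0.49 ± 0.12 SE, limma adjusted p = 0.0197). AML replicate 3 was the male of its group. The Rbbp7 call was lost without MPN replicate 1 (adjusted p = 0.0607) or 3 (0.0583) and with the term for sex (log2 fold change 0.46). Rbbp4, named after its values were seen, averaged 142 ± 16.0 TPM in AML mice and 104 ± 2.02 TPM in MPN mice (SD, n = 3 each; limma adjusted p = 0.0231), a call lost without AML replicate 2 or any MPN mouse (0.0617 to 0.0785) and after centring on the median gene (0.0604). Aebp2, the cofactor found with JARID2 in the same form of PRC2 and also named after its values were seen, averaged 81.3 ± 10.5 TPM in AML mice and 103 ± 8.86 TPM in MPN mice and did not pass (adjusted p = 0.0781), though it passed as lower with quantile scaling (0.0455), array weights (0.0135), centring on the median gene (0.0397) and without AML replicate 1 (0.0261). The 6 calls of this list came to 3 without MPN replicate 1 or 3, and to 1 with the term for sex.

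**Figure D3:**
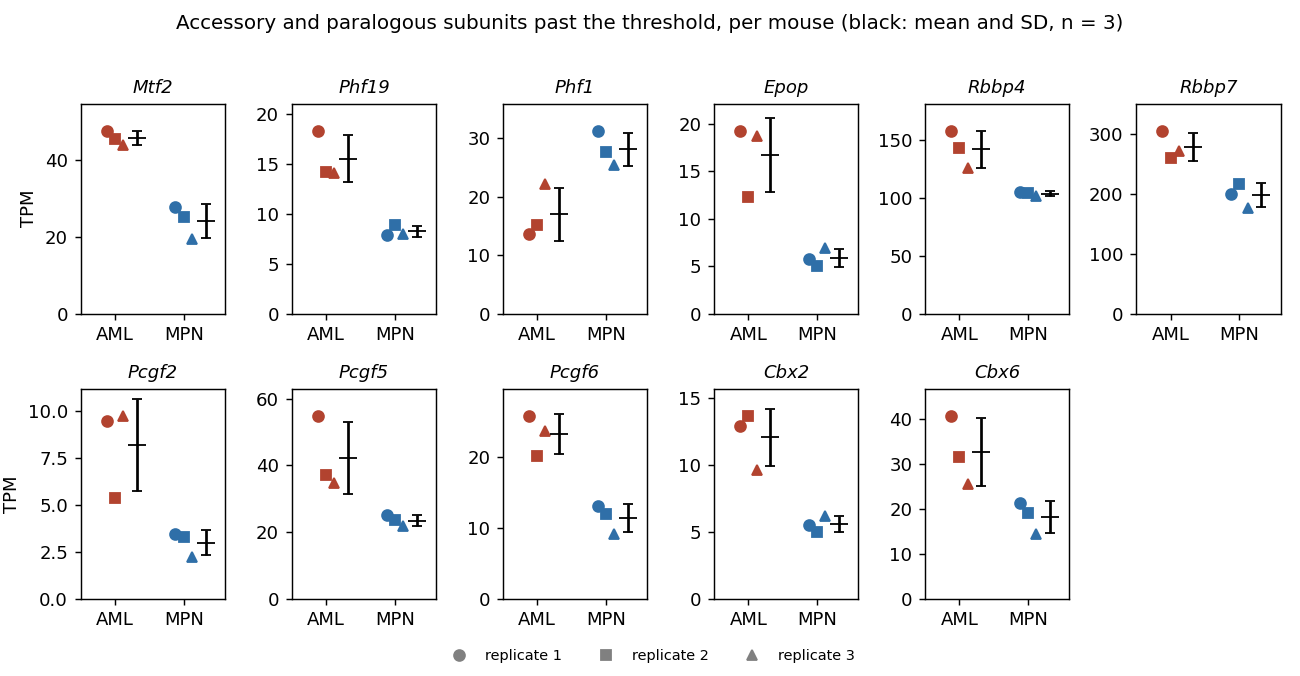
Level in TPM per mouse of 11 Polycomb subunits outside the 10 listed genes that passed the test, AML in red and MPN in blue, with the mean and SD (n = 3) in black; each vertical axis starts at 0. The 11 were chosen by the test on these same values, and for all of them the groups do not overlap. Over all tested genes the groups lie apart for 50.9%. Phf1 is the gene that lies lower in AML.

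In PRC1, several paralogues of the listed genes rose, whereas the listed genes did not pass, and whether they differed from each other was not tested. Of 6 RING and PCGF genes beside Ring1 and Bmi1, 3 rose, 0 fell and 3 did not pass, so 50% were called beside 30.1% of all tested genes (median log2 fold change 0.62). Pcgf2, which like Bmi1 belongs to canonical PRC1, had 9.49, 5.36 and 9.74 TPM in AML mice and 3.44, 3.28 and 2.22 TPM in MPN mice (1.18 ± 0.26 SE, limma adjusted p = 0.0135). Pcgf6, of a variant PRC1, had 25.7, 20.2 and 23.7 TPM in AML mice and 13.0, 11.9 and 9.11 TPM in MPN mice (0.98 ± 0.18 SE, adjusted p = 0.00697). Pcgf5 reached 54.7, 37.2 and 34.8 TPM in AML, against 25.0, 23.6 and 21.7 TPM in MPN (adjusted p = 0.0174). Each AML mouse lay above each MPN mouse for these 3 genes, which were picked by the test on these same values. Over all tested genes 34.8% lay apart and higher in AML. Rnf2, the other RING ligase, had 42.5, 29.2 and 27.4 TPM in AML mice and 25.8, 21.5 and 24.2 TPM in MPN mice and did not pass (adjusted p = 0.118). Pcgf2 was lost without MPN replicate 3 (adjusted p = 0.0521), and Pcgf5 without MPN replicate 2 (0.0581) or 3 (0.0640). The 3 calls thus came to 1 without MPN replicate 3, namely Pcgf6, and to 1 with the term for sex, namely Pcgf2.

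The number of Bmi1 transcripts per Pcgf2 transcript was 3.93, 4.23 and 2.53 in AML and 6.35, 6.81 and 7.65 in MPN. As a share of all PCGF transcripts Bmi1 overlapped between the groups, at 18.5% to 22.2% in AML and 20.8% to 23.5% in MPN, while their summed level was 122 to 168 TPM in AML mice and 81.6 to 101.1 TPM in MPN mice. The ratio of Ring1 to Rnf2 was 0.436, 0.819 and 0.816 in AML and 0.860, 1.09 and 0.900 in MPN, with AML replicate 1 far below the rest.

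Of 8 other subunits of canonical PRC1, 2 rose, 0 fell and 6 did not pass, so 25% were called beside 30.1% of all tested genes and 20.1% called higher (median log2 fold change 0.15). The 2 were CBX genes, whose proteins compete with CBX7 for the same place in the complex. Cbx2 had 12.9, 13.6 and 9.61 TPM in AML mice and 5.53, 4.96 and 6.18 TPM in MPN mice (0.98 ± 0.18 SE, limma adjusted p = 0.00770). Cbx6 had 40.5, 31.5 and 25.5 TPM in AML mice and 21.3, 19.0 and 14.3 TPM in MPN mice (0.80 ± 0.21 SE, adjusted p = 0.0285). For both genes each AML mouse lay above each MPN mouse, as for 34.8% of all tested genes, and both were picked by the test on these same values. Cbx8, another paralogue, had 5.93, 11.4 and 7.07 TPM in AML mice and 12.6, 11.8 and 13.5 TPM in MPN mice and did not pass (-0.62 ± 0.23 SE, limma adjusted p = 0.0804), though it did without AML replicate 2 (-0.87, adjusted p = 0.0192). The polyhomeotic gene Phc3 averaged 12.5 ± 1.17 TPM in AML mice and 19.2 ± 4.73 TPM in MPN mice and did not pass (adjusted p = 0.0777), though it did under several alternatives, such as centring on the median gene (0.0225) and the RPKM table (0.0477). The call of Cbx6 was lost without AML replicate 1 or 2 or MPN replicate 2 or 3 (0.0576 to 0.0862). Without AML replicate 2 Cbx8 passed as lower in its place, and without MPN replicate 3 Phc3 did (-0.75, limma adjusted p = 0.0293). The count of the list therefore did not change there, though a fall had replaced a rise. The count of 2 came to 1 without AML replicate 1 or MPN replicate 2 and to 0 with the term for sex.

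**Figure D4:**
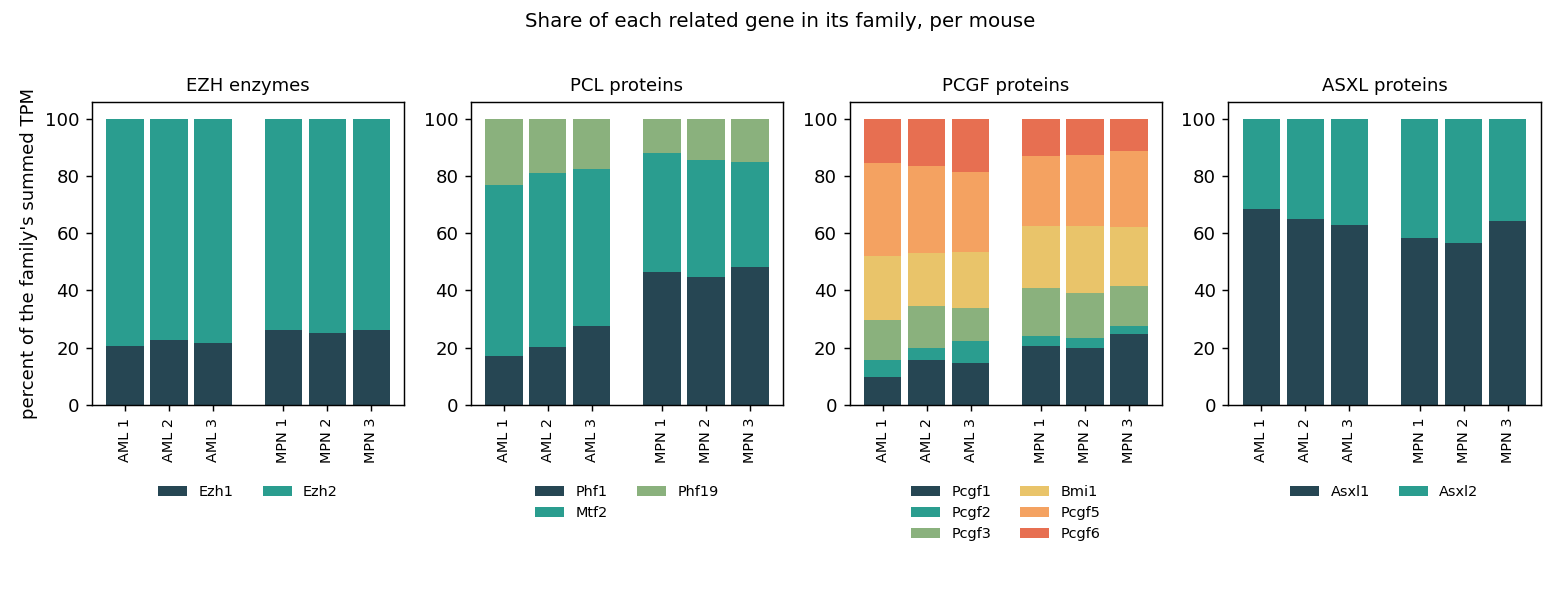
Share of each gene in the summed TPM of its family, in percent, for the EZH enzymes, the Polycomb-like (PCL) proteins, the PCGF proteins and the ASXL proteins; each bar is 1 mouse, AML left of MPN. Phf1 takes 17.1% to 27.7% of the PCL sum in AML and 44.7% to 48.3% in MPN, whereas Ezh1 takes 20.5% to 22.6% of the EZH sum in AML and 25.3% to 26.2% in MPN.

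The lists for variant PRC1 without its PCGF genes, for the deubiquitinase complex and for lysine 27 demethylation held no call. Pcgf5 and Pcgf6, which passed, were counted above with the PCGF genes. Of 10 tested subunits in the variant PRC1 list, 0 passed with limma, so 0% were called beside 30.1% of all tested genes. At an unadjusted p under 0.05 only Yaf2 passed, and over the alternatives the count of calls was 0 to 2. Yaf2 averaged 21.0 ± 4.78 TPM in AML mice and 14.0 ± 0.554 TPM in MPN mice (adjusted p = 0.0581), and its paralogue Rybp averaged 23.5 ± 1.55 TPM in AML mice and 27.8 ± 2.08 TPM in MPN mice (adjusted p = 0.192). Their groups lay apart in opposite directions, without a call. Of 8 tested partners of ASXL1 and ASXL2, 0 passed with limma, again 0% beside 30.1% of all tested genes. At an unadjusted p under 0.05 only Kdm1b passed, and over the alternatives the count of calls was 0 to 1. Bap1, the catalytic subunit, had 62.2, 49.4 and 48.0 TPM in AML mice and 48.9, 47.1 and 39.6 TPM in MPN mice (log2 fold change 0.23, adjusted p = 0.271). The demethylases that remove the PRC2 mark did not pass: Kdm6b averaged 18.3 ± 2.89 TPM in AML mice and 22.7 ± 4.07 TPM in MPN mice (adjusted p = 0.249). Kdm6a, an X-linked gene that escapes X inactivation, had 39.2 and 35.1 TPM in the female AML mice and 20.4 TPM in the male one, against 32.6, 29.4 and 23.9 TPM in MPN (adjusted p = 0.794).

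Genes known as targets of Polycomb silencing were listed separately, and 7 of the 11 reached the filter. Hmga2, a chromatin protein of fetal stem cells, had 17.4, 19.1 and 16.1 TPM in AML mice and 3.13, 2.04 and 1.52 TPM in MPN mice (log2 fold change 2.55 ± 0.21 SE, limma adjusted p = 0.000357). Hoxa9 averaged 19.1 ± 7.82 TPM in AML mice and 2.20 ± 0.528 TPM in MPN mice, and Hoxa7 averaged 11.4 ± 4.84 TPM in AML mice and 2.12 ± 0.160 TPM in MPN mice (SD, n = 3 each; adjusted p = 0.00109 and 0.00300). Cdkn1c, a cell cycle inhibitor named after its values were seen, was at 4.16, 2.20 and 3.29 TPM in AML and at 0.630, 0.740 and 0.660 TPM in MPN. It reached the filter through the AML mice alone, as did Hoxa10 and Igf2bp2, so that a count over the tested genes of this list has no weight. Of the genes under the filter, named after their values were seen, Cdkn2a, the classical target of BMI1, was listed at 0 in all AML mice and at 0.070, 0.320 and 0.240 TPM in MPN, and Cdkn2b was at most 0.400 TPM in AML mice and 0.620 to 1.05 TPM in MPN mice. Igf2bp3 and Lin28b, of the fetal programme, also stayed under the filter.

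The Trithorax group opposes Polycomb by methylating lysine 4 of histone H3. Of 12 genes, 4 rose, 2 fell and 6 did not pass, so 50% were called beside 30.1% of all tested genes (median log2 fold change -0.03). Among core subunits shared by several of these complexes, Ash2l and Wdr5 rose, with Ash2l at 49.3 ± 2.56 TPM in AML mice and 33.7 ± 3.65 TPM in MPN mice and Wdr5 at 102 ± 32.7 TPM in AML mice and 59.0 ± 5.0 TPM in MPN mice (SD, n = 3 each; limma adjusted p = 0.0171 and 0.0347). Rbbp5, another of them and named after its values were seen, averaged 34.2 ± 1.45 TPM in AML mice and 38.4 ± 3.28 TPM in MPN mice and did not pass (adjusted p = 0.333). Dpy30, another of them and also named after its values were seen, rose. It averaged 153 ± 19.1 TPM in AML mice and 107 ± 16.3 TPM in MPN mice (limma adjusted p = 0.0378). Men1, which tethers the methyltransferases KMT2A and KMT2B, averaged 53.6 ± 5.02 TPM in AML mice and 37.8 ± 2.20 TPM in MPN mice (adjusted p = 0.0202). The methyltransferase gene Kmt2b fell, at 28.3 ± 2.86 TPM in AML mice and 39.4 ± 3.92 TPM in MPN mice (adjusted p = 0.0369). Kmt2c, named after its values were seen, was the other gene that fell. Its level averaged 18.5 ± 0.771 TPM in AML mice and 26.7 ± 3.91 TPM in MPN mice (limma adjusted p = 0.0378). The alternatives were not followed gene by gene for Dpy30 and Kmt2c. Without MPN replicate 2 the calls of Ash2l, Wdr5, Men1 and Kmt2b were all lost (adjusted p = 0.0597 to 0.121). Other losses came without AML replicate 2 for Ash2l (0.0502), without MPN replicate 1 or 3 for Men1 and Wdr5 (0.0582 to 0.112), and without AML replicate 2 or 3 or MPN replicate 1 for Kmt2b (0.0859 to 0.131). Wdr5 was also lost after centring on the median gene (0.0504) and with no filter (0.0581). The 6 calls of the list came to 1 without MPN replicate 1 or 2, to 2 without AML replicate 2 and to 0 with the term for sex. Of 16 proliferation genes, whose level Ezh2 often follows, 2 rose (Mcm6 and Mcm3, adjusted p = 0.0123 and 0.0228), 0 fell and 14 did not pass, so 12.5% were called beside 30.1% of all tested genes, with a summed level of 2122 to 2769 TPM in AML mice and 1682 to 2207 TPM in MPN mice. Cdk1 and Aurkb, the next by p, did not pass (limma adjusted p = 0.0681 and 0.0687), though Cdk1 did without AML replicate 3 (0.0340). The groups lay apart and higher in AML for 6 of the 16, and apart and lower for 0. Over all tested genes these shares were 34.8% and 16.1%. Mcm3 lost its call without AML replicate 2, MPN replicate 1 or MPN replicate 3, which left 1, and with the term for sex neither gene passed (Mcm6 0.168, Mcm3 0.293).

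The tested genes closest in pattern were sought for Jarid2 and Suz12, the members with the smallest p-values. By Pearson's r of log2(TPM + 1) over the 6 mice, given as a description, Jarid2 ran closest to Tmem120b (r = 0.995), Mycbp2 (r = 0.993) and Etv3 (r = 0.991). Mycbp2, an E3 ubiquitin ligase gene, had 37.3, 33.3 and 34.0 TPM in AML mice and 67.4, 58.4 and 60.0 TPM in MPN mice. Suz12 ran closest to Memo1 (r = 0.998), Nelfcd and Afg3l2 (r = 0.997 each). Memo1 had 119, 68.1 and 72.7 TPM in AML mice and 68.5, 65.4 and 44.6 TPM in MPN mice, with the same mice high and low as for Suz12. For Jarid2 and its 3 closest genes each AML mouse lay below each MPN mouse. For Suz12 and its 3 closest genes AML replicate 1 was the highest library and MPN replicate 3 the lowest. Such likeness follows from choosing genes by r over these same 6 mice and is no separate result.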

How the data were processed

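RNA was sequenced in 6 libraries, 1 per mouse, from c-Kit+ splenocytes of 3 AML and 3 MPN mice. Per the labels' protocols, RNA with an integrity number above 8.0 was poly-A selected and read as paired ends of 75 bases from stranded libraries. Levels in TPM, as the authors deposited them by gene symbol, are RSEM output with 1 column per mouse, per the file headers. A table of RPKM by Ensembl gene was also deposited; its low values show a floor shared by unread genes and steps of whole reads. TopHat2, RSEM, Bowtie2, mm9 and mm10 are named, with no role, per the submitters' processing notes. The 12223 genes that reached 1 TPM in 3 or more libraries were compared as log2(TPM + 1), which understates the change of low genes, by limma 3.58.1 (R 4.3.3) (trend on, no covariates), two-sided, with Benjamini-Hochberg adjustment over all tested genes and a threshold of 0.05. RPKM was tested as log2 of the deposited values, for genes of at least 1 RPKM in at least 3 libraries, with 25213 of 25991 identifiers matched to a symbol. Scripts were tested on simulated data. Replicate numbers follow accession order and pair no mice. The members and lists were chosen with earlier results of these data known, so no list has a test. Beside the members, the rule named Dnmt3a and the 4 genes of each Polycomb, Trithorax, repressed and proliferation list with the smallest p. It also named the 3 genes closest in pattern to each of 2 members. Genes chosen otherwise are marked, apart from Asxl3, Igf2bp2, the sex transcript Xist and the cell type markers. One planned item is not reported here. Positions are from GENCODE M21 (GRCm38) and start regions from RefSeq, for location only. Alternatives were pseudocounts of 0.1 and 5, no filter and 5 TPM, median and quantile scaling, RPKM, no trend, array weights, a term for sex and each mouse left out; centring on the median gene was chosen after seeing the data.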

Additional observations from a re-analysis of the deposited data

How the results depend on the processing

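Over 17 alternatives, the count of called genes among the 10 was 1, as reported, except for 0 with a term for sex and a range of 0 to 1 when single mice were left out. Jarid2 kept its direction in all 17, with log2 fold changes of -0.65 to -0.46, as did Ezh1 (-0.27 to -0.07), Ezh2 (0.07 to 0.26), Suz12 (0.15 to 0.55), Asxl1 (0.11 to 0.33) and Bmi1 (0.15 to 0.56), none of which passed in any. Over all genes, 3678 passed, against 1208 with the term for sex and 2009 to 3705 without single mice. Among the other Polycomb lists 11 passed, against 2 with the term for sex, 17 with array weights and 6 to 12 without single mice. That term draws the fold change from AML replicate 3 alone, on the assumption that this mouse has the same spread as the rest. The Dnmt3a call held in all 17 (log2 fold change -1.43 to -1.08). In the RPKM table the AML mean minus the MPN mean was -0.041 for the ratio of Ezh1 to Ezh2, against -0.0739 in TPM. These differences are not on the same scale, because the ratio itself stands lower in RPKM. In AML mice Ezh1 and Ezh2 averaged 6.49 and 33.3 RPKM, against 24.6 and 89.7 TPM. No other source of the gap was tested. Directions turned only for genes without a call. Centring on the median gene gave log2 fold changes of -0.046 for Eed and -0.047 for Kdm6a. Leaving out single mice gave -0.28 to 0.022 for Asxl2 (above 0 without MPN replicate 1), -0.23 to 0.064 for Cbx7 (above 0 without AML replicate 2), -0.13 to 0.042 for Ring1 (above 0 without AML replicate 1) and -0.082 to 0.37 for Kdm6a (below 0 without AML replicate 1 or 2 or MPN replicate 3). The term for sex gave -0.46 for Kdm6a and -0.075 for Hcfc1. No paired analysis was possible because the labels number no mice across groups. TPM keeps no depth, so no counting error could be given.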
